A study of Sus scrofa with 13 samples.

Results

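The genes described here encode contractile proteins of fast skeletal muscle fibres. They are a list of 9 symbols, MYH1, MYH2, MYH4, MYL1, MYLPF, TNNT3, TNNI2, TNNC2 and PVALB, taken wherever an Ensembl identifier in both count tables carried the symbol in the authors' tables or in a RefSeq table. Of these 9 listed genes, 5 were found among the 25322 genes counted: MYH1, MYL1, MYLPF, TNNC2 and PVALB. MYH2, MYH4, TNNT3 and TNNI2 matched no identifier of the count tables and were not analysed here.

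RNA-seq was performed on longissimus lumborum, the loin muscle, of 13 female pigs aged 6 months from the Hampshire and Pietrain sire-line breeds. The 4 groups were Hampshire pigs with high loin weight (pigs 8, 9 and 10), Hampshire pigs with low loin weight (pigs 1, 2 and 3), Pietrain pigs with high loin weight (pigs 1, 2, 6 and 7) and Pietrain pigs with low loin weight (pigs 3, 5 and 8). A listing in the study gives fewer Pietrain pigs with high loin weight than the sample labels, which were followed here. No pig was treated, all were kept under the same housing and feeding conditions, and each pig gave 1 library. A single piece of whole muscle was counted per pig, so fewer cells of a type and less RNA per cell cannot be told apart.

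Skeletal muscle is a mosaic of slow, oxidative fibres and fast, glycolytic fibres, and the pig loin is known as a mainly fast muscle. Each fibre class builds its sarcomere from its own set of paralogs: a myosin heavy chain as the motor, light chains that stiffen and tune the motor, and a troponin complex that switches the thin filament on when calcium binds. Fast fibres also hold parvalbumin in some mammals, a soluble protein that takes up calcium during relaxation. MYH1 encodes the heavy chain of type IIx fibres, MYL1 the fast essential light chain, MYLPF the fast regulatory light chain, TNNC2 the calcium-binding subunit of fast troponin and PVALB parvalbumin.

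On Sscrofa10.2, the authors' tables place MYH1 (ENSSSCG00000018005) on chromosome 12 at 57967161 to 57984754, MYL1 (ENSSSCG00000016157) on chromosome 15 at 124861890 to 124886860, MYLPF (ENSSSCG00000007799) on chromosome 3 at 18376798 to 18379771, and TNNC2 (ENSSSCG00000007424) on chromosome 17 at 53671544 to 53674749. PVALB (ENSSSCG00000000138) had no position in those tables. The identifier that the authors call MYH1 is named MYH8, the perinatal heavy chain, in the RefSeq table, and skeletal heavy chains are near-identical paralogs that can share reads. Values given as MYH1 are therefore those of this identifier, and which heavy chain transcripts its reads came from is uncertain.

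Total counts per pig ranged from 11312755 to 20134612, and all 15 pairs of pigs within a group differed by more than sampling noise. The muscle label held in the counts: 7 skeletal muscle markers summed to 58891 to 212160 CPM (counts scaled to library size) in every pig, whereas both cardiac markers found summed to at most 63.63 CPM. Among the libraries, Pietrain low pig 5 stood apart by its near absence of slow fibre transcripts, with MYH7 at 6.57 CPM against 340.0 to 6960 CPM in the other 12 pigs. Results that rest on that pig are given with and without it. The members took 7.75 to 12.4% of all counts in a pig. This share was 8.24% ± 0.411 (SD, n = 3) in high and 10.15% ± 2.00 (SD, n = 3) in low Hampshire pigs, and 9.76% ± 1.70 (SD, n = 4) in high and 9.67% ± 0.986 (SD, n = 3) in low Pietrain pigs.

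The first question was whether the fast contractile genes differed with loin weight in Hampshire pigs. MYH1 was lower in the high group and was the only member that passed the test, at a 2.37-fold difference. MYLPF and TNNC2 had positive fold changes, MYL1 was close to level and PVALB had the largest negative value, and none of these 4 passed. Called genes (DEGs) differed at least 1.2-fold, with a p-value from edgeR's quasi-likelihood test that was under 0.05 after Benjamini-Hochberg adjustment. With this rule 26.6% of 12228 tested genes were called in Hampshire, 12% higher and 14.6% lower, so 1 called member of 5 is near the background of the comparison. The median log2 fold change of the members was 0.24, against 0.03 over all tested genes.

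The heavy chain came first among the members. MYH1 was at 27928, 13072 and 29391 CPM in Hampshire high pigs 8, 9 and 10. It was at 76490, 43782 and 46059 CPM in Hampshire low pigs 1, 2 and 3. All 3 high pigs were below all 3 low pigs, with high pig 9 the lowest and low pig 1 the highest of the 13 pigs. The log2 fold change was -1.25 ± 0.37 (SE), with an adjusted p of 0.0390 in edgeR. An exact permutation test of the 3 against 3 pigs gave p = 0.1 (two-sided), the smallest value this design allows. The call was lost when any 1 of the 6 pigs was left out (edgeR adjusted p 0.0526 to 0.0930), while the log2 fold change stayed between -1.46 and -0.98. DESeq2 gave an adjusted p of 0.000572.

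Other heavy chain genes in the tables may share reads with MYH1, which was not measured. The identifier named MYH13, a heavy chain known from eye and larynx muscles, was at 253.8, 428.4 and 518.0 CPM in the Hampshire high pigs and at 1502, 1420 and 1892 CPM in the low pigs. These groups did not overlap, and MYH13 was lower in the high pigs by 2.00 on the log2 scale (4.00-fold, SE 0.28, edgeR adjusted p = 0.00332). MYH3, the embryonic heavy chain, did not pass (log2 fold change -0.20 ± 0.85, adjusted p = 0.882). When the counts of MYH1, MYH3 and MYH13 were summed into 1 gene, an alternative chosen after seeing the data, the log2 fold change in Hampshire was -1.25 (adjusted p = 0.0348). MYH1 made up 94.4 to 98.95% of this sum in the Hampshire pigs, so the sum could hardly differ from MYH1 alone and is no separate check of it.

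The light chains did not follow the heavy chain. MYL1 was at 20915, 27115 and 16923 CPM in Hampshire high pigs 8, 9 and 10 and at 21957, 16624 and 16027 CPM in low pigs 1, 2 and 3. These ranges overlapped, and the log2 fold change of 0.24 ± 0.25 (SE) did not pass (edgeR adjusted p = 0.505). MYLPF was at 22515, 28746 and 20432 CPM in the high pigs and at 20978, 11362 and 12738 CPM in the low pigs. Only low pig 1 reached into the range of the high pigs. Its log2 fold change was 0.66 ± 0.29 (SE, edgeR adjusted p = 0.122, exact permutation p = 0.2). Without low pig 1 the value was 0.94 and passed (adjusted p = 0.0343), and DESeq2 also called it with all pigs (adjusted p = 0.0379).

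TNNC2, the troponin subunit, was at 19821, 26793 and 18463 CPM in Hampshire high pigs 8, 9 and 10 and at 16846, 10618 and 11810 CPM in low pigs 1, 2 and 3. The groups did not overlap, with every high pig above every low pig. The log2 fold change of 0.72 ± 0.27 (SE) did not pass in edgeR (adjusted p = 0.0735) and passed in DESeq2 (adjusted p = 0.0124). It also passed in edgeR without low pig 1 (0.91, adjusted p = 0.0412). MYH1 and TNNC2 were thus the 2 members of 5 whose groups did not overlap, against 45.9% of the genes tested in Hampshire.

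A trend with gene span touched MYLPF and TNNC2. Across Hampshire genes, log2 fold changes fell with the genomic span of the gene (Spearman rho = -0.39 over genes, which do not vary independently). MYLPF, spanning 2974 bases, and TNNC2, spanning 3206 bases, were at the 9.18 and 9.99 percentiles of span. With this trend removed their log2 fold changes were 0.27 and 0.33 (edgeR adjusted p = 0.477 and 0.338). MYH1, at the 47.8 percentile, was at -1.25 (adjusted p = 0.0409). It lies near the middle of span, so removing this trend could hardly move it. Span is not transcript length, and a trend with transcript length was not tested for any member. PVALB and MYH13 have no span in the tables and were not adjusted.

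PVALB had between 161 and 2395 counts in each library. It was at 10.96, 76.91 and 30.57 CPM in Hampshire high pigs 8, 9 and 10 and at 50.52, 116.4 and 157.1 CPM in low pigs 1, 2 and 3. High pig 9 lay above low pig 1, so the groups overlapped, and the pigs within each group spread widely. The log2 fold change of -1.45 ± 0.62 (SE) did not pass (edgeR adjusted p = 0.112). Without high pig 9 it was -2.40 and passed (adjusted p = 0.0361).

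**Figure D1:**
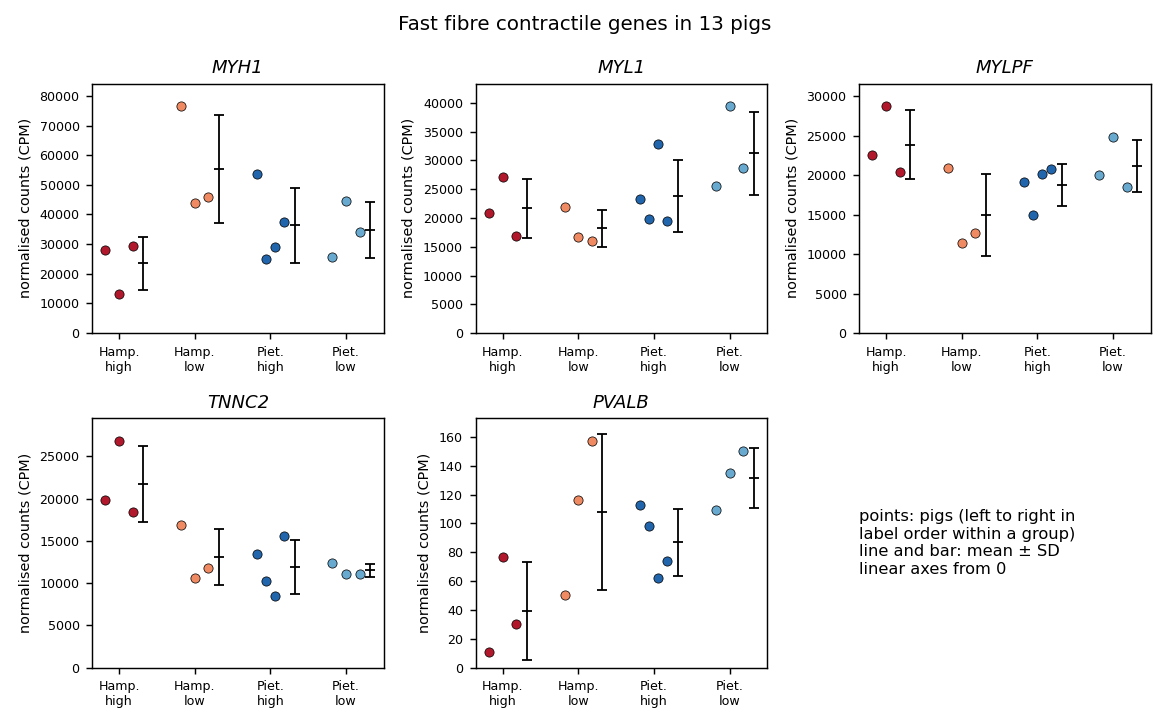
Normalised counts (CPM, linear axes from 0) of the 5 fast fibre genes found, 1 panel per gene, with 1 point per pig in each of the 4 groups and the mean ± SD beside them. MYH1 is lower in all 3 Hampshire high pigs (13072 to 29391) than in the 3 Hampshire low pigs (43782 to 76490), TNNC2 is higher in all 3, and the Pietrain groups overlap for every gene.

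The same question was asked in Pietrain, where no member passed the test. Of 12065 genes tested, 0% were called (0 genes, smallest edgeR adjusted p 0.939, with 398 genes at an unadjusted p under 0.05 and 1 DEG in DESeq2). No member had groups that did not overlap, against 4.59% of the genes tested. The median log2 fold change of the members was -0.14, against 0.02 over all tested genes.

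MYH1 was at 53771, 25132, 29136 and 37367 CPM in Pietrain high pigs 1, 2, 6 and 7 and at 25606, 44684 and 33935 CPM in low pigs 3, 5 and 8. The high group spanned the whole range of the low group, and the log2 fold change was 0.10 ± 0.27 (SE, edgeR adjusted p = 0.963). It changed sign without high pig 1 (-0.12) and without low pig 3 (-0.04). TNNC2 was at 13438, 10249, 8485 and 15591 CPM in the high and at 12420, 11129 and 11031 CPM in the low pigs. Its log2 fold change was 0.09 ± 0.22 (SE, adjusted p = 0.964), and the 3 low pigs lay within the range of the high pigs.

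MYL1 was at 23317, 19757, 32876 and 19466 CPM in Pietrain high pigs 1, 2, 6 and 7 and at 25540, 39411 and 28678 CPM in low pigs 3, 5 and 8. High pigs 1, 2 and 7 were below all low pigs and high pig 6 was above low pigs 3 and 8. The log2 fold change was -0.35 ± 0.22 (SE, edgeR adjusted p = 0.939), and -0.18 without low pig 5. For MYLPF the 4 high pigs lay between 14904 and 20836 CPM and the 3 low pigs between 18558 and 24863 CPM, with a log2 fold change of -0.14 ± 0.18 (SE, adjusted p = 0.940).

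PVALB was the member with the largest value in Pietrain. It was at 113.0, 98.44, 62.31 and 73.94 CPM in high pigs 1, 2, 6 and 7 and at 109.3, 135.3 and 150.0 CPM in low pigs 3, 5 and 8. High pig 1 lay above low pig 3, so the groups overlapped. The log2 fold change of -0.57 ± 0.23 (SE) had an unadjusted p of 0.0316 and an adjusted p of 0.939 in edgeR, and an exact permutation test gave p = 0.0857 (two-sided). The sign was negative in both breeds for PVALB, at values that did not pass in either.

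The difference of the loin weight effect between the breeds was tested as an interaction over all 13 pigs. None of the 5 members passed at an adjusted p under 0.05, against 5.9% of 12831 genes tested. The Hampshire effect minus the Pietrain effect was -1.31 ± 0.48 (SE) on the log2 scale for MYH1 (edgeR adjusted p = 0.128) and 0.85 ± 0.33 for MYLPF (adjusted p = 0.144). It was 0.68 ± 0.34 for TNNC2 (adjusted p = 0.254), 0.64 ± 0.34 for MYL1 (adjusted p = 0.298) and -0.86 ± 0.71 for PVALB (adjusted p = 0.523). A call for MYH1 in Hampshire and none in Pietrain is therefore not a shown difference between the breeds. MYLPF passed without Hampshire low pig 1 (1.11, adjusted p = 0.0390). Without Hampshire high pig 9 the difference was -1.84 for PVALB, 0.37 for MYL1 and 0.43 for TNNC2, and without high pig 8 it was -0.47 for PVALB, none of which passed.

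**Figure D2:**
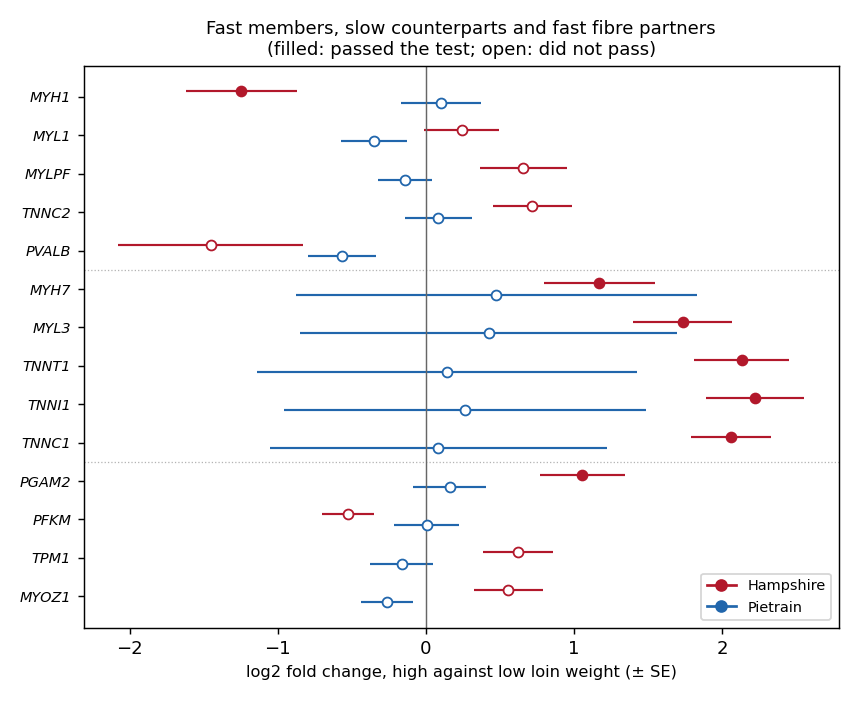
Log2 fold change of high against low loin weight (points, with bars of ± SE) in Hampshire and Pietrain for the 5 fast members, 5 slow counterparts and 4 fast fibre partners, filled where the gene was called. In Hampshire MYH1 is filled at -1.25 and all 5 slow counterparts are filled between 1.17 and 2.22, while no gene is filled in Pietrain. No fast member or slow counterpart passed the test of the difference between the breeds.

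**Figure D3:**
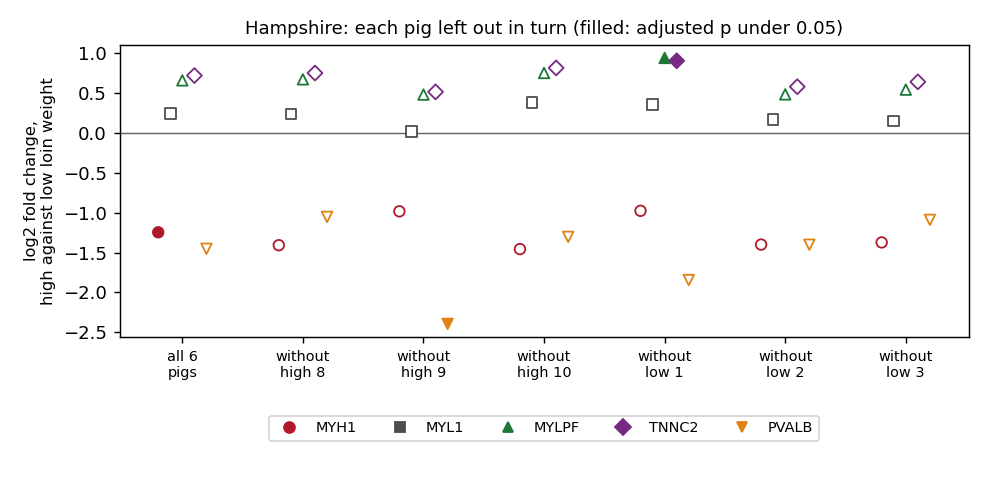
Log2 fold change of the 5 members in Hampshire with all 6 pigs and after removing 1 pig at a time, filled where the edgeR adjusted p is under 0.05. MYH1 stays between -1.46 and -0.98 but is filled only with all 6 pigs, and MYLPF and TNNC2 are filled only without low pig 1.

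Levels were then compared between breeds at the same loin weight. The breeds were counted in separate tables, so breed and any difference in the handling of the tables cannot be told apart. Among low loin weight pigs MYL1 was lower in Hampshire (log2 fold change -0.78 ± 0.25 SE, 1.72-fold, edgeR adjusted p = 0.0469). Its 3 Hampshire low pigs (16027 to 21957 CPM) were all below its 3 Pietrain low pigs (25540 to 39411 CPM). MYL1 was the 1 member of 5 called and the 1 whose groups did not overlap. In this comparison 17.9% of genes were called, 10.1% lower in Hampshire, and 42.8% did not overlap. The call was lost without Hampshire low pig 2 or 3 or Pietrain low pig 5 or 8 (adjusted p 0.102 to 0.190) and without the filter on low counts (adjusted p = 0.0634). Without Pietrain low pig 5 the log2 fold change was -0.58.

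Among high loin weight pigs the called member was TNNC2, which was 1.82-fold higher in Hampshire (log2 fold change 0.86 ± 0.23 SE, edgeR adjusted p = 0.00712). The 3 Hampshire pigs (18463 to 26793 CPM) were all above the 4 Pietrain pigs (8485 to 15591 CPM), and an exact permutation test gave p = 0.0571 (two-sided). Here 46.8% of genes were called, 22.6% higher in Hampshire, and 48.7% did not overlap, so 1 member of 5 is below the background. Without Hampshire high pig 9 the value was 0.63 and the call was lost (adjusted p = 0.0621). PVALB had a log2 fold change of -1.14 ± 0.50 (SE, adjusted p = 0.0748). It passed without Hampshire high pig 9 (-2.10, adjusted p = 0.00514).

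Placed in order of mean level, the 4 groups ranked differently for each member. MYH1 ran from Hampshire low (55444 ± 18262 CPM, SD, n = 3) through Pietrain high (36352 ± 12681, n = 4) and Pietrain low (34742 ± 9565, n = 3) to Hampshire high (23464 ± 9029, n = 3), and each pair of neighbours in this order overlapped. MYL1 ran from Pietrain low (31210 ± 7274 CPM) through Pietrain high (23854 ± 6265) and Hampshire high (21651 ± 5136) to Hampshire low (18203 ± 3265). MYLPF ran from Hampshire high (23897 ± 4326 CPM) through Pietrain low (21173 ± 3287) and Pietrain high (18736 ± 2652) to Hampshire low (15026 ± 5201). Neighbours overlapped in both light chain genes.

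TNNC2 was highest in Hampshire high pigs (21693 ± 4469 CPM), followed by Hampshire low (13092 ± 3306), Pietrain high (11941 ± 3182) and Pietrain low (11527 ± 776). Only the first step in this order was without overlap. PVALB ran from Pietrain low (131.6 ± 20.63 CPM) through Hampshire low (108.0 ± 53.78) and Pietrain high (86.93 ± 23.01) to Hampshire high (39.48 ± 33.86), with overlap at each step. The Hampshire groups held the widest spread of PVALB, with an SD of 85.8% of the mean in the high and 49.8% in the low group against 26.5% and 15.7% in Pietrain.

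The slow paralogs give the other side of each fast gene. In Hampshire all 5 slow counterparts found were called higher in the high group, beside 12% of all genes tested. They were MYH7, the slow heavy chain, MYL3, the slow essential light chain, and TNNT1, TNNI1 and TNNC1, the slow troponin subunits. Their log2 fold changes were 1.17 ± 0.37 (SE, edgeR adjusted p = 0.0469) for MYH7, 1.73 ± 0.33 (adjusted p = 0.00855) for MYL3, 2.13 ± 0.32 (adjusted p = 0.00376) for TNNT1, 2.22 ± 0.33 (adjusted p = 0.00372) for TNNI1 and 2.06 ± 0.27 (adjusted p = 0.00255) for TNNC1. In 1 fit over all 13 pigs, where the spread of the Pietrain pigs enters the error, none of the 5 passed (adjusted p 0.192 to 0.545). In Pietrain their log2 fold changes were 0.08 to 0.48 (SE 1.14 to 1.36). Without Pietrain low pig 5 the value was -0.11 for MYH7, -0.44 for TNNT1, -0.31 for TNNI1 and -0.49 for TNNC1. For MYL3 the value ran from -0.17 to 1.21 with 1 Pietrain pig left out. The difference of the loin weight effect between the breeds passed for none of the 5 (edgeR adjusted p 0.448 to 0.853), so a breed difference is not shown. That test and the fit over all 13 pigs are not given without Pietrain low pig 5. MYH7 overlapped between the groups and lost its call in 9 of 14 alternatives. Of 4 other slow fibre genes tested, 1 was called higher (ANKRD2, 1.23 on the log2 scale) and 0 lower, beside 12% and 14.6% of all genes. MYL3, TNNT1, TNNI1, TNNC1 and ANKRD2 had no span in the authors' tables and were not adjusted for the trend with gene span. The identifier the authors call MYH7 is named MYH6 in the RefSeq table, so it has the same uncertainty as MYH1.

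Fast and slow paralogs counted in the same library were set against each other as a log2 ratio of counts, which does not depend on scaling between libraries. Of the 9 members, 3 had both partners counted: MYH1 to MYH7, MYL1 to MYL3 and TNNC2 to TNNC1. In Hampshire high pigs 8, 9 and 10 there were 4.01, 3.68 and 5.56 MYH1 counts for each MYH7 count, and in low pigs 1, 2 and 3 there were 58.4, 12.3 and 21.6. The high pigs were all below the low pigs, with a difference in mean log2 ratio of -2.52 (2.12 ± 0.314 against 4.64 ± 1.14, SD, n = 3 each).

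MYL1 and TNNC2 gave the same order against their slow partners in Hampshire. MYL1 counts were 14.2 to 20.8 times those of MYL3 in the high and 29.2 to 82.1 times in the low pigs, a log2 difference of -1.52. TNNC2 counts were 7.09 to 12.7 times those of TNNC1 in the high and 16.5 to 38.6 times in the low pigs, a log2 difference of -1.30. Each of these 3 ratios had an exact permutation p of 0.1 (two-sided), the smallest possible with 3 against 3 pigs. The fitted fold change of TNNC2 was itself positive (0.72), below that of its slow partner TNNC1 (2.06).

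In Pietrain the ratios spread widely within both groups, with the widest values in pigs where the slow genes were low. In low pig 5 there were 6802 MYH1 counts for each MYH7 count and 24898 MYL1 counts for each MYL3 count, since MYH7 had 83 counts and MYL3 had 20. In high pigs 1 and 6 there were 69.1 and 85.7 MYH1 counts per MYH7 count, against 3.98 and 6.44 in high pigs 2 and 7 and 6.10 and 11.2 in low pigs 3 and 8. MYH1 itself in low pig 5 was 44684 CPM, within the range of the other Pietrain pigs. The high minus low difference in mean log2 ratio was -1.97 for MYH1 to MYH7, -2.22 for MYL1 to MYL3 and -0.91 for TNNC2 to TNNC1 (exact permutation p = 0.657, 0.571 and 0.8). Without low pig 5 all 3 turned positive, to 1.26, 0.74 and 1.24.

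**Figure D4:**
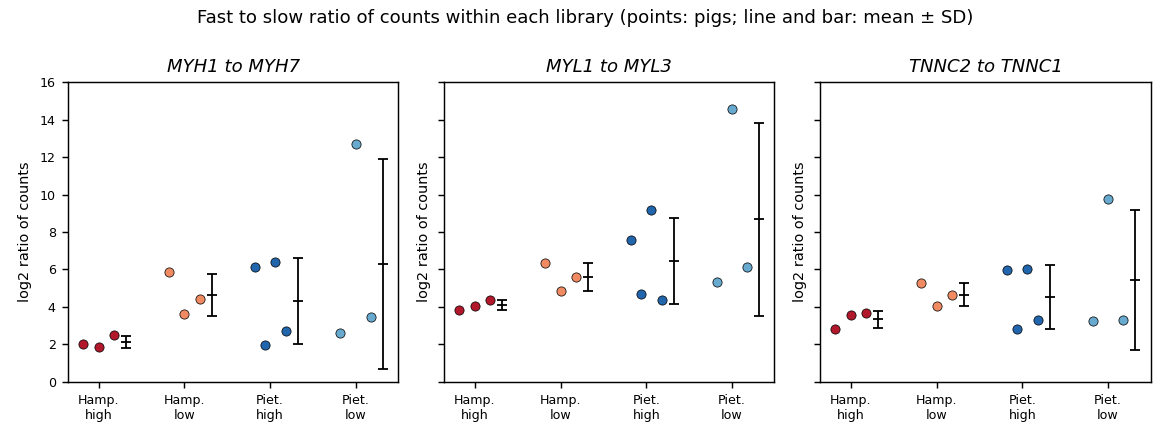
Log2 ratio of counts of a fast gene to its slow paralog in the same library, 1 point per pig, with the mean ± SD of each group. The 3 Hampshire high pigs lie below the 3 Hampshire low pigs in each panel, and Pietrain low pig 5 lies above all other pigs in each panel (12.7, 14.6 and 9.74).

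Other genes of the fast fibre were taken from a list of 17 partners, such as calcium pumps, sarcomere proteins and glycolytic enzymes, of which 15 were found and tested. In Hampshire 1 was called higher and 0 lower, beside 12% and 14.6% of all genes tested. The median log2 fold change was 0.15, against 0.03 over all genes. The called partner was PGAM2, the muscle form of phosphoglycerate mutase in glycolysis (1.06 ± 0.29 SE, edgeR adjusted p = 0.0276). It was at 7332, 12558 and 6182 CPM in the high and 4700, 4162 and 3594 CPM in the low pigs, without overlap, and it lost its call with the trend with gene span removed (0.66, adjusted p = 0.101). The call was also lost without high pig 9 (0.67, adjusted p = 0.0552), low pig 2 (adjusted p = 0.0743) or low pig 3 (adjusted p = 0.112). The next partners by adjusted p were PFKM, muscle phosphofructokinase, at -0.53 ± 0.17 (adjusted p = 0.0525), TPM1, a tropomyosin of the thin filament, at 0.62 ± 0.24 (adjusted p = 0.0803) and MYOZ1, a Z-disc protein of fast fibres, at 0.56 ± 0.24 (adjusted p = 0.107). In Pietrain 0 of the 15 partners were called, with a median of 0.02.

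Regulators of fibre type formed a second list, of 18 genes with 13 tested in Hampshire. There 1 was called higher and 7 lower, beside 12% and 14.6% of all genes tested, with a median log2 fold change of -0.85 against 0.03 over all genes. The 4 with the smallest adjusted p were all lower in the high group: TEAD1 (-1.31 ± 0.21 SE, edgeR adjusted p = 0.00495) and MEF2C (-1.40 ± 0.26, adjusted p = 0.00724), transcription factors of muscle genes, MEF2A (-1.18 ± 0.22, adjusted p = 0.00747) and PPARGC1A (-1.74 ± 0.38, adjusted p = 0.0131), a coactivator of oxidative metabolism. PPARGC1A was low in Hampshire, at 1.975 to 3.364 CPM in the high and 4.764 to 11.84 CPM in the low pigs. In Pietrain it was at 5.549 to 183.1 CPM in the high and 170.7 to 201 CPM in the low pigs. It lost its Hampshire call without low pig 3 (-1.38, adjusted p = 0.0563) and in 1 fit over all 13 pigs (adjusted p = 0.144). The counts and the median of this list were not adjusted for the fall of fold changes with gene span in Hampshire. Over 14 alternatives, which included removing that trend, the weakest values were -0.92 for TEAD1, -1.03 for MEF2C and -0.94 for MEF2A. Those 3 genes kept their calls throughout. MEF2C was at 68.92, 36.73 and 41.70 CPM in the high and at 113.8, 159.5 and 113.8 CPM in the low pigs, without overlap. In Pietrain 0 of 14 regulators tested were called.

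The spread of the members between pigs of the same group was described by correlations of log2 CPM after subtracting the group mean, over 13 pigs that share the scaling of their libraries. MYL1 with MYLPF (Pearson r = 0.70, Spearman rho = 0.60) and MYLPF with TNNC2 (r = 0.65, rho = 0.72) had the highest values of the 10 pairs. MYH1 had r of 0.01 to 0.28 with MYL1, MYLPF and TNNC2 and of -0.50 with PVALB (rho = -0.32). Pigs with more of 1 light chain tended to have more of the other. Outside the list, the genes most like the mean of the 5 members were KIAA0907 (r = 0.92, rho = 0.88), POLR1B (r = 0.92, rho = 0.97), JTB (r = 0.90, rho = 0.86), SEH1L (r = 0.90, rho = 0.84) and an unnamed gene, ENSSSCG00000027704 (r = 0.88, rho = 0.80), over the same 13 pigs. They were picked as the 5 highest r among the 12831 genes tested over all pigs, members aside, and were not tested.

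Markers of other cells were read in Hampshire against the same 12% of genes called higher and 14.6% called lower, and their part in the results was not tested. Of 7 fibroblast markers tested, 4 were called higher and 0 lower in the high group, and their summed level was 1970 to 5076 CPM in high against 771.9 to 1688 CPM in low pigs. Of 7 macrophage markers 1 was called higher, at 144.2 to 210.2 against 46.54 to 123.7 CPM. Of 6 smooth muscle markers 2 were called higher, with sums that overlapped. The smooth muscle list shares DES with the skeletal muscle list, so its sum also holds a skeletal muscle marker. Called higher were also 1 of 4 adipocyte and 1 of 5 endothelial markers, while 0 of 3 blood and 0 of 1 cardiac markers tested were called. The endothelial sums were 200.5 to 239.3 CPM in high against 135.6 to 183.7 CPM in low pigs. The adipocyte, blood and cardiac sums overlapped. Of 5 early response and heat shock genes 2 were called lower, with sums that overlapped. Among 7 skeletal muscle markers CKM and TCAP were called higher (log2 fold change 0.98 and 1.06) and NEB, the giant nebulin gene, lower (-1.29). The skeletal muscle sums were 124334 to 212160 CPM in high against 84680 to 118581 CPM in low pigs. In Pietrain 0 genes of any of these lists were called, and the fibroblast sums overlapped (857.4 to 2343 CPM in high, 961.3 to 1623 CPM in low pigs).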

How the data were processed

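The authors made libraries from total RNA of each pig with a TruSeq kit that does not mark strand, sequenced them in 101 single-end cycles and deposited unnormalised read counts of each Ensembl gene, in 1 table per breed. The submitters' processing notes name FastQC, STAR, RSEM, DESeq2 and Sscrofa10.2, and how reads shared between paralogs were assigned is not given in the sources used here. The authors' fold changes and p-values, which the deposited tables also hold, were not used.

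From the counts, R 4.3.3 and edgeR 4.0.16 were used (filterByExpr on the groups, then TMM, then glmQLFit and glmQLFTest). Each breed was fitted on its own, and 1 fit over 13 pigs served the difference between breeds and the comparisons of breeds. Nothing in the labels pairs the pigs. Standard errors were computed from the fold change and the F statistic. CPM are TMM-normalized over 13 pigs, and permutation tests used log2(CPM + 0.5). DEGs needed an at least 1.2-fold change besides an adjusted p-value under 0.05, and the interaction used the adjusted p-value only. DESeq2 1.42.0 was an alternative, and the tests were run on simulated data with known changes. Figures were drawn with matplotlib 3.10.9.

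The members, gene lists and tests were chosen with earlier results of these data known. Genes named were all members, the slow counterparts, up to 4 genes with the smallest Hampshire adjusted p-value from each of 3 lists (fast partners, regulators, other heavy chains), and the 5 genes most like the members. Other names were chosen after their values were seen. Of 126 list symbols 93 were found, by the authors' symbols first and a RefSeq table of Sscrofa11.1 (names only) second. Sequences and levels per transcript length were not analysed here, and the share of each heavy chain was left out because MYH2 and MYH4 have no identifier.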

Additional observations from a re-analysis of the deposited data

Results flagged for a closer look

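MYH13, a heavy chain gene outside the list whose reads may be shared with MYH1, stood out because its loin weight effect differed between the breeds by a test of the difference itself. The Hampshire effect minus the Pietrain effect was -2.44 on the log2 scale (SE 0.42, edgeR adjusted p = 0.00612). In this test 5.9% of 12831 genes passed. MYH13 passed under all 18 alternatives (adjusted p up to 0.0183), none of which removed the trend with gene span. That trend was steeper in Hampshire (Spearman rho = -0.386) than in Pietrain (rho = -0.089), and its part in the MYH13 value was not tested. MYH13 was at 253.8 to 518.0 CPM in the 3 Hampshire high pigs, and at 1109 to 2499 CPM in the other 10 pigs. No value of the members, the slow counterparts, the ratios or the share of counts in the 4 Pietrain high pigs lay far enough from the rest to stand out, in 14 sets tested.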

How the results depend on the processing

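Of 363 fold changes of the members under alternatives over the 5 comparisons, 336 kept both direction and call, 12 lost a call, 9 gained one and 6 turned direction. These include the setting without a fold change threshold, which reused the main fits and could not move a value. They also include the sum of MYH1, MYH3 and MYH13, which is no separate check. The Hampshire call of MYH1 was lost in 6 of 15 alternatives. In Hampshire 3 members were called with DESeq2, and leaving out 1 pig at a time gave 0 to 2 called members and 1224 to 3049 DEGs. In Pietrain DESeq2 gave 1 DEG, no member was called under any alternative, and leaving out pigs gave log2 fold changes of -0.12 to 0.30 for MYH1 and -0.082 to 0.24 for TNNC2. The slow counterparts in Pietrain ran from -0.11 to 1.16 (MYH7), -0.17 to 1.21 (MYL3), -0.44 to 0.70 (TNNT1), -0.31 to 0.85 (TNNI1) and -0.49 to 0.61 (TNNC1), and MYH3 in Hampshire from -0.75 to 0.60. The Pietrain differences in log2 ratio ran from -3.81 to 1.26 (MYH1 to MYH7), -3.90 to 0.74 (MYL1 to MYL3) and -1.995 to 1.24 (TNNC2 to TNNC1), all positive only without low pig 5. The difference between breeds had 757 calls, 1223 with DESeq2 and 379 to 1052 with 1 pig left out, with 0 or 1 member called. Between breeds at low loin weight, 2300 calls became 109 to 2611 with 1 pig left out, with 0 to 2 members called, and 0 members were called without the filter. There the ranges were -0.029 to 0.36 for TNNC2 and -0.61 to 0.069 for PVALB. At high loin weight 2 members were called without the filter, and MYL1 ran from -0.38 to 0.029. Without subtracting group means, the correlations of MYH1 were -0.16 with MYL1, -0.36 with MYLPF, -0.34 with TNNC2 and 0.18 with PVALB, those of MYL1 were 0.62 with MYLPF, -0.20 with TNNC2 and 0.20 with PVALB, those of MYLPF 0.58 with TNNC2 and -0.38 with PVALB, and that of TNNC2 with PVALB -0.55. The cause of these changes was not tested. DESeq2's size factors, scaling without the member genes, at least 10 counts in every pig and no fold change threshold moved no count of called members.

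With 3 or 4 pigs in a group, exact permutation tests cannot go below p = 0.1 in Hampshire or 0.0286 in Pietrain. The correction for gene span is void for the fits over all pigs, where 77.7% of the tested genes had a span, and was not used there. Summing MYH1, MYH2 and MYH4 and their shares were not run. No paired analysis was possible because pig numbers are not shared between the high and low groups of a breed.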
